A study of Mus musculus with 4 samples.

Results

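10 genes for neurotrophic factors and their receptors were followed in sorted cells of the mouse cochlea. They were taken by symbol, and were 10 of the 23420 genes listed. The secreted factors were the neurotrophins Bdnf and Ntf3, the Gdnf family ligands Artn, Gdnf and Nrtn, and the cytokine Cntf. The receptors were Ntrk2, Ntrk3, Gfra1 and Ret. All 10 passed the minimum of 100 reads summed over the replicates, which 16078 genes passed.

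Neurotrophic factors are secreted or released proteins that keep neurons alive and guide their axons. Bdnf binds the receptor tyrosine kinase TrkB, encoded by Ntrk2, and Ntf3 binds TrkC, encoded by Ntrk3. Ligands of the Gdnf family bind a Gfra co-receptor, which then engages the kinase Ret. Gdnf prefers the product of Gfra1, Nrtn that of Gfra2 and Artn that of Gfra3. In the inner ear, hair cells and their supporting cells are known sources of Bdnf and Ntf3 for the spiral ganglion neurons, which carry the 2 Trk receptors. Cntf acts through a receptor complex of Cntfr, Lifr and Il6st and signals to Jak kinases and Stat3.

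The cells came from Atoh1-GFP transgenic mice of the CD1 strain at postnatal day 1, in which GFP marks hair cells. Cochleae of all 4 groups were kept in culture overnight in 5% CO2 and 5% O2, and the gentamicin groups then received 0.5 mM gentamicin for 3 h. Gentamicin is an aminoglycoside antibiotic that is toxic to hair cells. GFP-positive cells were sorted as hair cells (HC) with the weakly fluorescent cells gated out, and GFP-negative cells as non-hair cells (NHC). The non-hair cells are a mixture of supporting cells, the epithelial ridges and surrounding tissue. The 4 groups were HC control, HC gentamicin, NHC control and NHC gentamicin, with 3 replicates each. The study calls them biological replicates, and the labels do not say whether they came from separate cultures. The p-values measure the spread between these replicates.

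Each gene had a deposited score in each replicate, made of scaled reads with 1 added. Taking the offset off gave back 22400679 to 28152271 reads on genes per replicate. The 8 hair cell markers were all higher in control hair cells than in control non-hair cells, with a median log2 difference of 7.84. Of the 8 supporting cell markers, 2 were higher in control hair cells and 0 lower, and their summed score (each less 1) ran from 1398 to 1616 in HC control and from 836.7 to 1326 in NHC control. Markers of other cells were present in the sorted hair cells: the summed score of 8 mesenchyme markers was 248.9 to 532.8 in HC control, against 5675 to 7247 in NHC control. With bulk RNA, fewer cells of a type and less RNA per cell cannot be told apart. An exact two-sided permutation test of 3 replicates against 3 cannot give a p below 0.10, so the tests below are those of limma, fitted over all 16078 genes with the 4 groups in 1 model.

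The bases before the RefSeq starts of these genes were read to show what lies upstream of the members that differed most. RefSeq on GRCm38.p6, the assembly also called mm10, gave 16 windows of 250 bases for 8 of the 10 members, with 7 windows for Bdnf. 4 motifs were searched on both strands: the AP-1 motif TGANTCA, the cyclic AMP response element TGACGTCA, its shorter core TGACG, which the longer element contains, and the E-box CANNTG. Each set below is shown because its gene is the most hair cell specific member (Bdnf) or rose in hair cells after gentamicin (Artn and Cntf). Of the 7 Bdnf windows, windows 2 and 3 are shown because they held an AP-1 or TGACG match, which the others did not. Capitals mark AP-1 and TGACG matches, and each sequence runs 5′ to 3′ on the strand of its gene.
Bdnf window 2, chr2:109676782-109677031, plus strand: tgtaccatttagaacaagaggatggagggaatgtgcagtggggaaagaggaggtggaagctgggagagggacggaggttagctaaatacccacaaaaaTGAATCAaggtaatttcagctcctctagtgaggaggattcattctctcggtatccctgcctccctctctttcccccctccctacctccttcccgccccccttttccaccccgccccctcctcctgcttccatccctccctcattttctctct
Bdnf window 3, chr2:109692186-109692435, plus strand: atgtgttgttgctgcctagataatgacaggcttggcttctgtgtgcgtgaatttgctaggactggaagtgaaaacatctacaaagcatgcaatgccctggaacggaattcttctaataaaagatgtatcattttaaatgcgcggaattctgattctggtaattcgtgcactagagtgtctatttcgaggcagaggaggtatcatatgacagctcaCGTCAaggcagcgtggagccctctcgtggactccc
Artn, chr4:117929764-117930013, minus strand: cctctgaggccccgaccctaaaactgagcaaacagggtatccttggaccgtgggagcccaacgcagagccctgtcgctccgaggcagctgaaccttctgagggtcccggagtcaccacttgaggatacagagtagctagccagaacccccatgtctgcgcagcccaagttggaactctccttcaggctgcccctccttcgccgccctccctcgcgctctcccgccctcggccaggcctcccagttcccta
Cntf, chr19:12765633-12765882, minus strand: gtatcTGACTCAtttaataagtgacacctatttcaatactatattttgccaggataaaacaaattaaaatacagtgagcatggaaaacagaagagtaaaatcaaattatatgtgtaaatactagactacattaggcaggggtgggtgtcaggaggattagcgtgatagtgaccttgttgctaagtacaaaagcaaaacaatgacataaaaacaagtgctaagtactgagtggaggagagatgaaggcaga

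AP-1 matches were found in 2 of the 16 windows. The match in Bdnf window 2 began 152 bases before the start and that of Cntf began 245 bases before it. Over all 32851 RefSeq windows of this length, 6.75% held an AP-1 match. TGACG was found in 2 windows, in Bdnf window 3 at 35 bases before the start and in 1 window of Gdnf, and in 17.8% of all windows. The full element TGACGTCA was in 0 of the 16 windows and in 1.55% of all windows. The E-box was in 15 of the 16 windows and in 66.2% of all windows. The Artn window held 2 E-boxes and none of the other motifs. These matches describe letters only, and no binding was measured.

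Untreated hair cells and non-hair cells were compared first. The factors Bdnf and Artn were higher in hair cells, while Gdnf, Nrtn and all 4 receptors were lower there. By an adjusted p under 0.05, 8 of the 10 members differed, 2 higher and 6 lower in hair cells. Over all genes tested the same rule called 74.1% of genes, 31.9% higher and 42.2% lower. The median log2 difference of the members, hair cells less non-hair cells, was -1.25, against -0.12 over all genes tested. Differences and folds in the text are on the scale of log2(score), whose offset of 1 understates changes of low genes.

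Bdnf lies on chromosome 2 at 109674700 to 109727007, on the plus strand. Its score in control hair cells was 139.9, 129.9 and 142, and in control non-hair cells 2.41, 3.02 and 3.16. The groups did not overlap. The log2 difference was 5.59 (SE 0.23, limma adjusted p = 1.74e-09), or 48.2-fold on this scale. Artn, a ligand best known for sympathetic and sensory neurons, lies on chromosome 4 at 117926162 to 117929763. Its scores were 33.5, 30.7 and 27.1 in hair cells and 6.12, 7.06 and 7.10 in non-hair cells, a log2 difference of 2.17 (SE 0.17, limma adjusted p = 2.80e-07).

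Ntf3, on chromosome 6 at 126101412 to 126166910, was scored at 35.5, 29.6 and 36.7 in control hair cells and at 17.3, 15.9 and 26.3 in control non-hair cells. The 2 groups did not overlap, but the third non-hair cell replicate came near the hair cells. The log2 difference of 0.80 (SE 0.34) had a limma adjusted p of 0.0522 and so missed the threshold in the main fit, which ignores the replicate numbers. With the replicate number as a block it passed (adjusted p = 0.00509), as it did with the 2 groups fitted alone (adjusted p = 0.00668), with scaling by a trimmed mean (0.92, adjusted p = 0.0305) and without NHC control replicate 3 (1.02, adjusted p = 0.0286). Over its 15 alternatives the adjusted p ran from 0.00509 to 0.154.

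The other Gdnf family ligands had the opposite pattern to Artn. Nrtn, on chromosome 17 at 56751325 to 56757530, was at 4.08, 4.42 and 3.86 in control hair cells and at 18.3, 18.7 and 22.9 in control non-hair cells. Its log2 difference was -2.27 (SE 0.17, limma adjusted p = 3.05e-07). Gdnf, on chromosome 15 at 7810846 to 7837575, was at 3.00, 3.61 and 3.86 against 9.93, 10.6 and 7.29, a log2 difference of -1.40 (SE 0.20, limma adjusted p = 5.84e-05). Cntf, known as a factor of glia, was low in both populations. Its scores were 1.73, 1.17 and 2.0 in control hair cells and 1.74, 1.80 and 1.56 in control non-hair cells. These overlapped, and the interval of the log2 difference ran from -0.52 to 0.34.

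The receptors were lower in sorted hair cells throughout. Ntrk2, on chromosome 13 at 58806569 to 59133970, scored 19.6, 35.5 and 24.1 in control hair cells and 188.7, 231.5 and 162.2 in control non-hair cells. This was a log2 difference of -2.91 (SE 0.22, limma adjusted p = 2.36e-07). The gene encodes full-length and truncated TrkB, which a score per gene does not separate. Ntrk3, on chromosome 7 at 78175959 to 78738012, scored 5.34, 8.61 and 5.93 against 17.6, 31.1 and 22.7, with a log2 difference of -1.84 (SE 0.24, limma adjusted p = 2.68e-05). Gfra1, on chromosome 19 at 58235604 to 58455909, scored 21.1, 24.9 and 23.7 against 41.1, 49.4 and 60.3, a log2 difference of -1.10 (SE 0.14, limma adjusted p = 2.12e-05). Ret, on chromosome 6 at 118151745 to 118197718, rested on only 5.0 to 9.0 reads per replicate in control hair cells. Its scores there were 1.26, 1.38 and 1.23, against 7.49, 4.72 and 4.44 in control non-hair cells, and the log2 difference was -2.06 (SE 0.29, limma adjusted p = 4.74e-05). Spiral ganglion neurons and glia also carry these receptors, and the summed score of 8 glial markers was 235.4 to 297.2 in HC control and 635.4 to 857.6 in NHC control. That of 8 neuron markers was 1007 to 1221 in HC control and 622.2 to 1625 in NHC control, which overlapped. The mean log2 score of the neuron markers was 4.28 to 4.99 in HC control and 5.34 to 6.52 in NHC control. With the estimated RNA of other cells, given below and made without neuron or glial markers, taken off the hair cells, 8 members still differed. The log2 difference of Ntrk2 then moved to -3.89 (limma adjusted p = 5.9e-06, and 3.34e-08 to 1.41e-05 over its alternatives), and the other receptors stayed lower, from -1.31 for Gfra1 to -2.41 for Ret.

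Levels of different genes were compared only per length, as the score less 1 per kilobase of merged exons. The study's methods describe the scores as already divided by gene length, but within a replicate 1 step in score per read gave whole reads at like rates in short and long genes (83.2 to 85.4% of low values in 4 classes of length), so the division was made here. In control hair cells Bdnf was highest at 21.9 ± 1.04 (SD, n = 3), followed by Ntf3 at 19.2 ± 2.22, and the ranges of these 2 overlapped. Artn came next at 12.2 ± 1.32, then Gfra1 at 4.06 ± 0.36, Nrtn at 3.05 ± 0.28 and Ntrk2 at 1.32 ± 0.42, each with a range apart from its neighbours. Gdnf at 0.68 ± 0.12 overlapped Cntf at 0.59 ± 0.40, and Cntf overlapped Ntrk3 at 0.19 ± 0.058. Ret was lowest at 0.043 ± 0.012.

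In control non-hair cells the order was different. Nrtn was highest per kilobase at 18.5 ± 2.49, apart from the rest. Ntf3 at 11.0 ± 3.30, Ntrk2 at 10.01 ± 1.81 and Gfra1 at 9.0 ± 1.76 overlapped in turn. Artn at 2.40 ± 0.23 overlapped Gdnf at 2.25 ± 0.48, and Ntrk3, Ret and Cntf lay between 0.65 and 0.76 with overlapping ranges. Bdnf was lowest at 0.30 ± 0.065. The choice of length mattered for Ntrk2, which in control non-hair cells was at 22.1 with its longest transcript in place of merged exons and then came above Nrtn, with overlapping ranges. In control hair cells the longest transcript left the order as it was but changed which ranges overlapped. Bdnf at 31.9 then lay apart from Ntf3 at 22.2, and Nrtn at 3.05 overlapped Ntrk2 at 2.90.

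**Figure D1:**
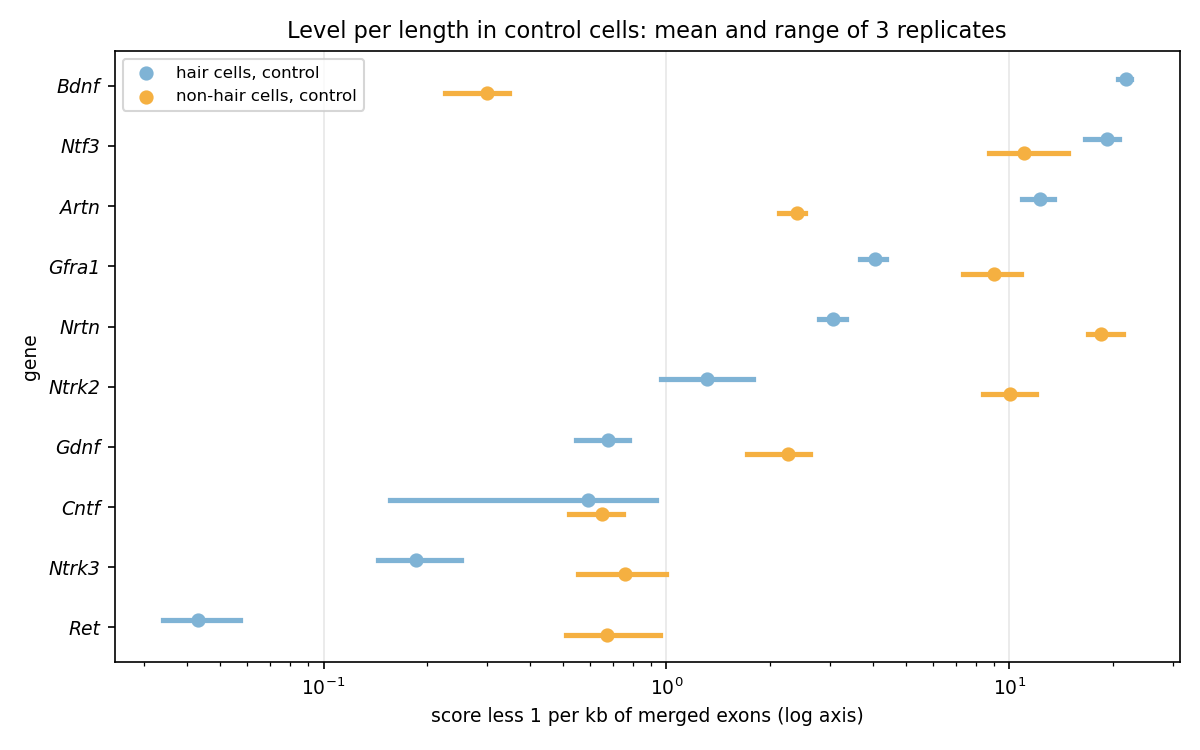
Level per length of the 10 genes in control cells, as the score less 1 per kilobase of merged exons on a log axis. Points are means and bars the lowest to highest of 3 replicates; Bdnf lies at 21.9 in hair cells and 0.30 in non-hair cells, while Nrtn lies at 3.05 and 18.5.

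Gentamicin was then compared with control in hair cells. The factors Artn and Cntf rose, and the receptors Ntrk3 and Gfra1 fell. At an unadjusted p below 0.01 with more than a 1.2-fold change, 4 of the 10 members passed, against 27.5% of all genes tested. Of these 2 rose, against 12.7% of all genes, and 2 fell, against 14.8%. In 8 of the 10 members the treated and control replicates did not overlap, which held for 54.8% of all genes. The members' median log2 difference was -0.40, against -0.09 over all genes tested. These comparisons share the control hair cells with the comparison of populations above.

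**Figure D2:**
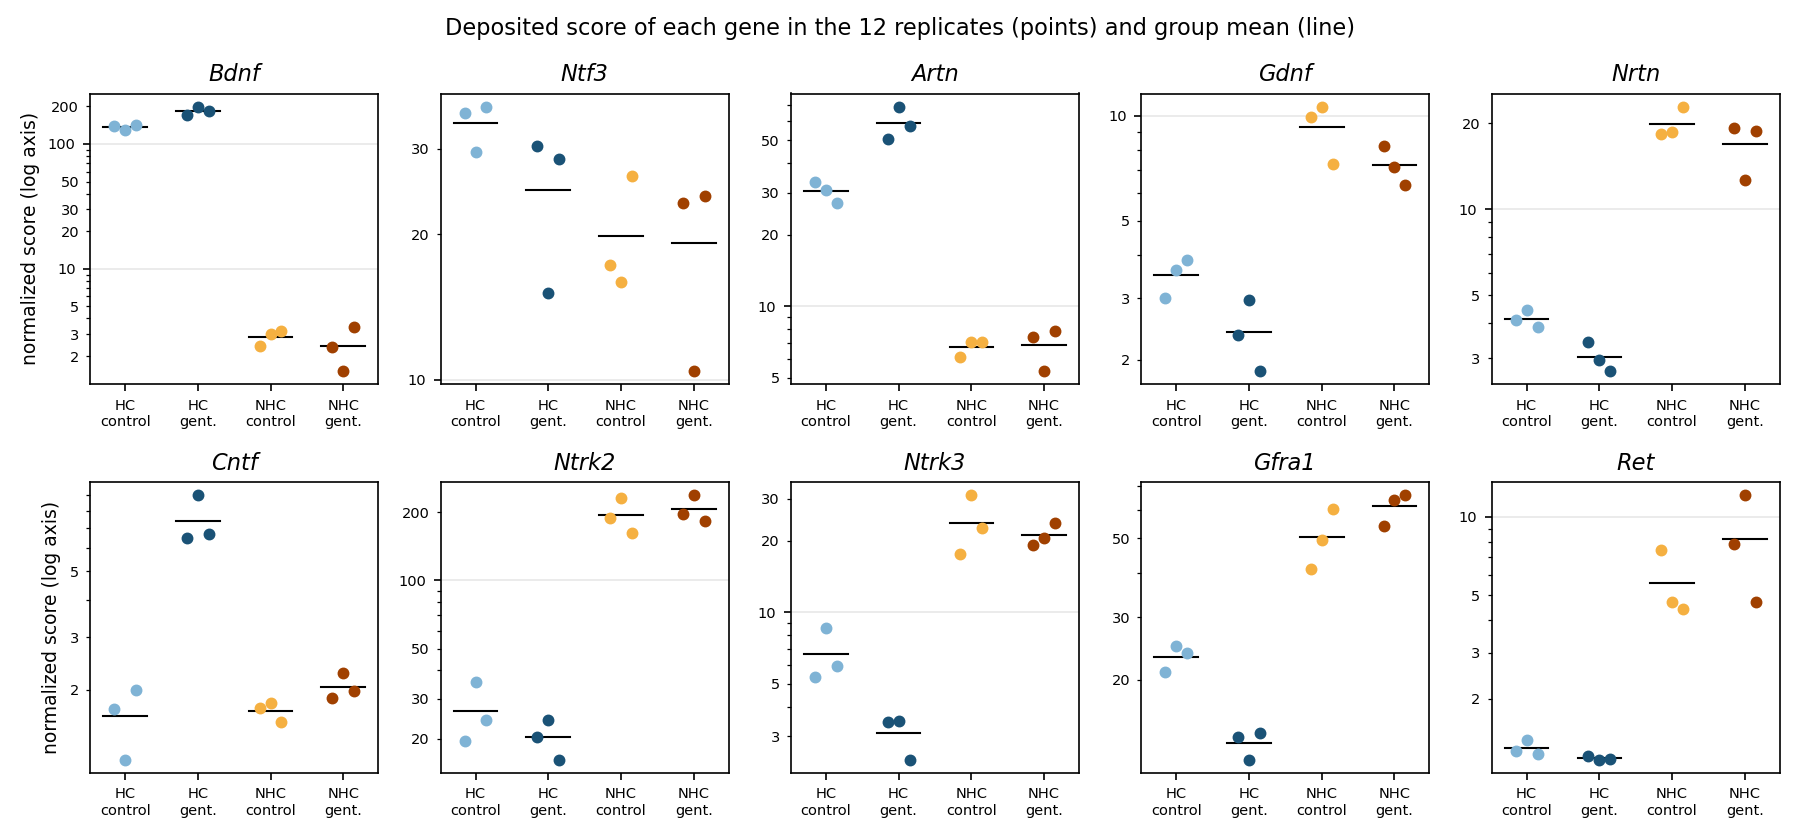
Score of each gene in each of the 12 replicates on a log axis, with 1 panel per gene and its own scale (HC, hair cells; NHC, non-hair cells; gent., gentamicin; line, mean of 3). The treated hair cells lie above their controls for Bdnf, Artn and Cntf, and below them for Gdnf, Nrtn, Ntrk3, Gfra1 and Ret.

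Artn had scores of 33.5, 30.7 and 27.1 in control hair cells and 50.4, 69.1 and 57.6 after gentamicin. All 3 treated replicates lay above all controls. The mean went from 30.4 ± 3.19 (SD, n = 3) to 59.0 ± 9.47, a log2 difference of 0.95 (SE 0.17, limma adjusted p = 0.00161). It passed in each of the 15 alternatives, from 0.83 to 1.06. Jun is a transcription factor of the AP-1 family, and the study placed Artn among its targets. Jun scored 310.1, 390.8 and 403.5 in control hair cells and 837.6, 1201 and 986.8 after gentamicin (log2 difference 1.45, limma adjusted p = 0.00536). In non-hair cells Jun scored 536.6, 1040 and 950.1 in control and 430.9, 436.6 and 943.3 after gentamicin, and these overlapped. A link between Jun and the rise of Artn was not tested.

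Cntf had the steepest rise of the members. Its scores were 1.73, 1.17 and 2.0 in control hair cells and 6.49, 9.01 and 6.68 after gentamicin, from 16.8, 3.9 and 21.7 recovered reads to 133.1, 191.4 and 159.4. The log2 difference was 2.20 (SE 0.20, limma adjusted p = 4.36e-05), and it passed in all 14 alternatives that could include it, from 1.97 to 3.36. Cntf, on chromosome 19 at 12763660 to 12765632, shares 847 exon bases, or 78.9% of its own, with an annotated transcript of Zfp91 on the same strand. Recovered reads of Cntf were whole numbers, within 0.1 read, in 2 of 12 replicates, against 12 of 12 for Ntf3, Artn, Gdnf, Nrtn, Ntrk3 and Ret. For Gfra1 this held in 10 of 12, for Bdnf in 8 and for Ntrk2 in 1. Ntrk2 shares 0 exon bases with the genes annotated over it, so reads that were not whole were not particular to Cntf. How shared reads were divided between the 2 genes is not given in the sources used here, so the values of Cntf are uncertain. Zfp91 itself scored 213.6, 206.2 and 232.4 in control hair cells and 231.2, 248.7 and 233.1 after gentamicin (log2 difference 0.13, limma adjusted p = 0.128).

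**Figure D3:**
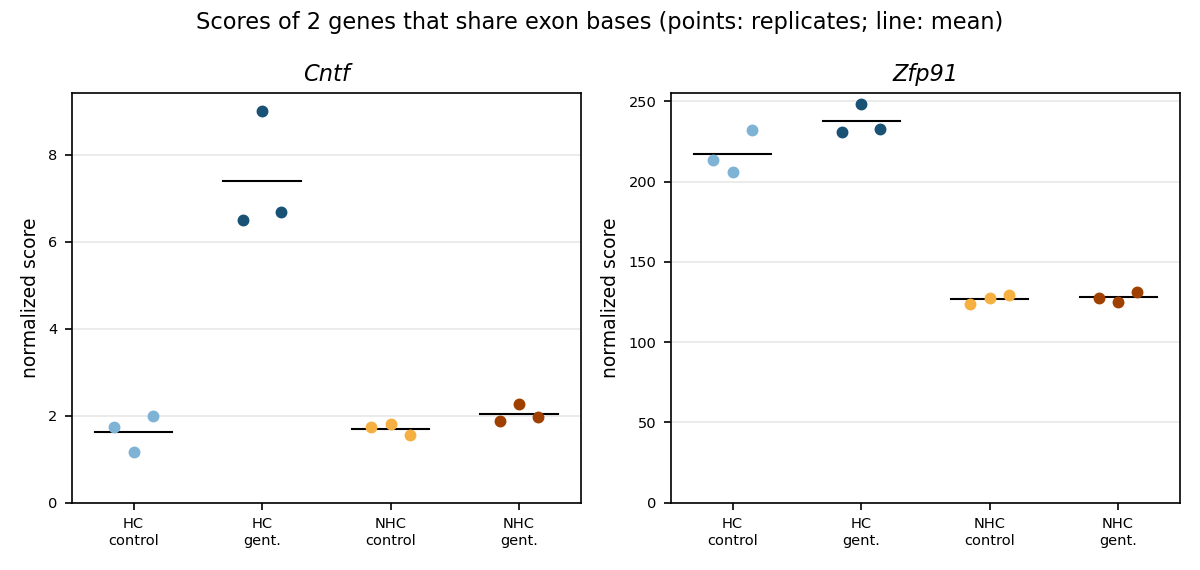
Scores of Cntf (left) and Zfp91 (right), which share exon bases, in each replicate on linear axes from 0 (HC, hair cells; NHC, non-hair cells; gent., gentamicin; line, mean of 3). Cntf lies between 6.49 and 9.01 in treated hair cells and at or below 2.28 elsewhere, while Zfp91 overlaps between treated and control hair cells.

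Bdnf was higher in all 3 treated replicates than in any control, at 170.3, 198.9 and 183.1 against 139.9, 129.9 and 142, and the groups did not overlap. The log2 difference of 0.42 (95% interval -0.08 to 0.92) had a limma adjusted p of 0.18 and did not pass. The model shares 1 spread per gene between the populations, and the non-hair cell replicates of Bdnf hold only 14.0 to 68.0 reads. In a fit without the non-hair cells the same difference passed (limma adjusted p = 0.00415). Over its 15 alternatives the adjusted p ran from 0.00415 to 0.412, and this was the alternative that passed.

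Ntf3 was at 30.4, 15.1 and 28.7 after gentamicin, against 35.5, 29.6 and 36.7 in control hair cells. The groups overlapped, with the second treated replicate far below the others, and the interval of the log2 difference ran from -1.27 to 0.24. Without HC gentamicin replicate 2 the difference was -0.19 in place of -0.52. Gdnf was at 2.36, 2.97 and 1.86 after gentamicin and at 3.00, 3.61 and 3.86 in control, which did not overlap. Its log2 difference of -0.56 (SE 0.20, limma adjusted p = 0.0519) did not pass, but did so without HC gentamicin replicate 2 (-0.73, limma adjusted p = 0.0296). Nrtn was at 3.43, 2.97 and 2.71 after gentamicin and at 4.08, 4.42 and 3.86 in control, again without overlap, and its log2 difference of -0.44 (limma adjusted p = 0.0714) did not pass.

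Among the receptors, Gfra1 fell from 21.1, 24.9 and 23.7 to 13.8, 11.9 and 14.2. The log2 difference was -0.81 (SE 0.14, limma adjusted p = 0.00157), and it passed in all 15 alternatives. Ntrk3 fell from 5.34, 8.61 and 5.93 to 3.43, 3.47 and 2.39. Its log2 difference was -1.09 (SE 0.24, limma adjusted p = 0.00583), and it too passed in all 15 alternatives. Ntrk2 was at 20.4, 24.2 and 16.2 after gentamicin against 19.6, 35.5 and 24.1, which overlapped, with an interval of the log2 difference from -0.83 to 0.12. Ret was at 1.21, 1.17 and 1.18 after gentamicin against 1.26, 1.38 and 1.23, from 4.0 to 9.0 reads per replicate in hair cells, and a difference was not detectable at this depth (interval -0.76 to 0.51).

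Markers of several other cell types also fell in the treated hair cells. The 8 macrophage markers had 0 calls and a median log2 difference of 0.05. Their summed score was only 3.27 to 4.48 in HC control, which left little room for a fall to be seen. The 8 hair cell markers had 0 calls and a median log2 difference of -0.02. Their summed score was 11345.5 to 11727.7 in control and 9566 to 10679 after gentamicin, without overlap. Single markers moved both ways without overlap. Atoh1 averaged 209.5 ± 17.0 (SD, n = 3) in control and 296.0 ± 7.94 after gentamicin, and Myo7a 1657 ± 72.6 and 1384 ± 68.5. The model shares 1 spread per gene with the non-hair cells, where Atoh1 averaged 1.38 and Myo7a 11.2 in control. The 0 calls therefore do not show that these markers were unchanged. Of 8 glial markers 4 fell and 0 rose, and their summed score was 120.4 to 198.4 after gentamicin. Of 8 mesenchyme markers 3 fell and 0 rose, with a summed score of 170.1 to 213.4 after gentamicin. Of 8 endothelium markers 1 fell and 0 rose. Their summed score was 16.2 to 31.3 in control and 9.15 to 15.7 after gentamicin, without overlap. Of 6 pericyte and smooth muscle markers 3 fell and 0 rose. Their mean log2 score was 2.13 to 2.52 in control and 1.59 to 1.86 after gentamicin, also without overlap. Of 8 supporting cell markers 3 fell and 0 rose, with a summed score of 626.7 to 1170 after gentamicin. The 8 neuron markers had 0 calls, but a median log2 difference of -0.83, against -0.44 for the glial markers. Their mean log2 score was 3.79 to 4.01 after gentamicin and 4.28 to 4.99 in control, without overlap, while their summed score was 930.0 to 1091 against 1007 to 1221. In non-hair cells the neuron markers also had 0 calls, with a median log2 difference of -0.79. None of these markers was at 0 reads throughout a group. RNA of other cells was estimated from 30 markers of mesenchyme, endothelium, pericytes with smooth muscle, and macrophages. Of the 6 pericyte and smooth muscle markers, 1 was higher in control hair cells. No supporting cell, neuron or glial marker was used, so RNA of those cells may be understated. Between control populations the glial markers had a median log2 difference of -1.64, against -4.26 for mesenchyme. By this estimate RNA of other cells made up 4.89 to 7.73% of HC control and 2.48 to 5.25% of HC gentamicin. After this share was taken off, the log2 difference was -0.90 for Gfra1 (limma adjusted p = 0.00152) and -1.22 for Ntrk3 (limma adjusted p = 0.0133), and 0.96 for Artn and 2.23 for Cntf. Over the alternatives the adjusted p ran from 0.00114 to 0.00933 for Gfra1 and from 0.00382 to 0.0282 for Ntrk3. That estimate treats the non-hair cells as 1 mixture, and the part of neurons or glia alone in the fall of Ntrk3 was not tested.

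In non-hair cells 0 of the 10 members passed the same rule in limma, and 0 had an unadjusted p under 0.05; over all genes 5.44% passed. Replicates did not overlap for 1 member, Cntf, against 17.8% of all genes. Cntf was at 1.74, 1.80 and 1.56 in control and at 1.88, 2.28 and 1.98 after gentamicin, with a log2 difference of 0.27 (limma adjusted p = 0.515). Artn was at 6.12, 7.06 and 7.10 in control and at 7.45, 5.35 and 7.85 after gentamicin, a log2 difference of 0.01 with an interval from -0.35 to 0.37. Gfra1 was at 41.1, 49.4 and 60.3 in control and at 54.0, 64.3 and 66.1 after gentamicin, with a log2 difference of 0.30 (limma adjusted p = 0.299).

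Among the other members in non-hair cells, Ret was spread widely, at 7.49, 4.72 and 4.44 in control and 7.84, 12.1 and 4.73 after gentamicin. Bdnf was at 2.35, 1.52 and 3.39 after gentamicin, and Ntf3 at 23.2, 10.4 and 24.0, so that in both the second treated replicate was lowest. Ntrk2 was at 197.2, 237.8 and 183.2 after gentamicin, Ntrk3 at 19.2, 20.6 and 23.7, Gdnf at 8.23, 7.11 and 6.34 and Nrtn at 19.3, 12.7 and 18.7. All of these overlapped their controls. Single replicates decided some calls, which rest on the unadjusted p: without NHC control replicate 3 Gfra1 passed (0.44, limma adjusted p = 0.164), and without NHC gentamicin replicate 3 Bdnf (-0.59, adjusted p = 0.088) and Ret (0.85, adjusted p = 0.0741) passed.

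The difference between the 2 responses was tested as an interaction. At an adjusted p under 0.05 it was called for Artn, Cntf and Gfra1, 3 of the 10 members, against 13.4% of all genes tested. Artn rose more in hair cells than in non-hair cells, by 0.94 on the log2 scale (SE 0.23, limma adjusted p = 0.0245). For Cntf the difference was 1.93 (SE 0.28, limma adjusted p = 0.00302). For Gfra1 it was -1.11 (SE 0.20, limma adjusted p = 0.00661). Ntrk3 had -0.95 (limma adjusted p = 0.0858) and Bdnf 0.73 (limma adjusted p = 0.155), and neither passed. The calls of Cntf and Gfra1 held when each of the 12 replicates was left out in turn. Artn lost its call without HC control replicate 2 (adjusted p = 0.0563), HC control replicate 3 (0.059), HC gentamicin replicate 2 (0.0632) or NHC control replicate 2 (0.0583), and over its 20 alternatives the adjusted p ran from 0.0156 to 0.0632. Bdnf passed without NHC gentamicin replicate 3 (1.01, adjusted p = 0.0221).

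**Figure D4:**
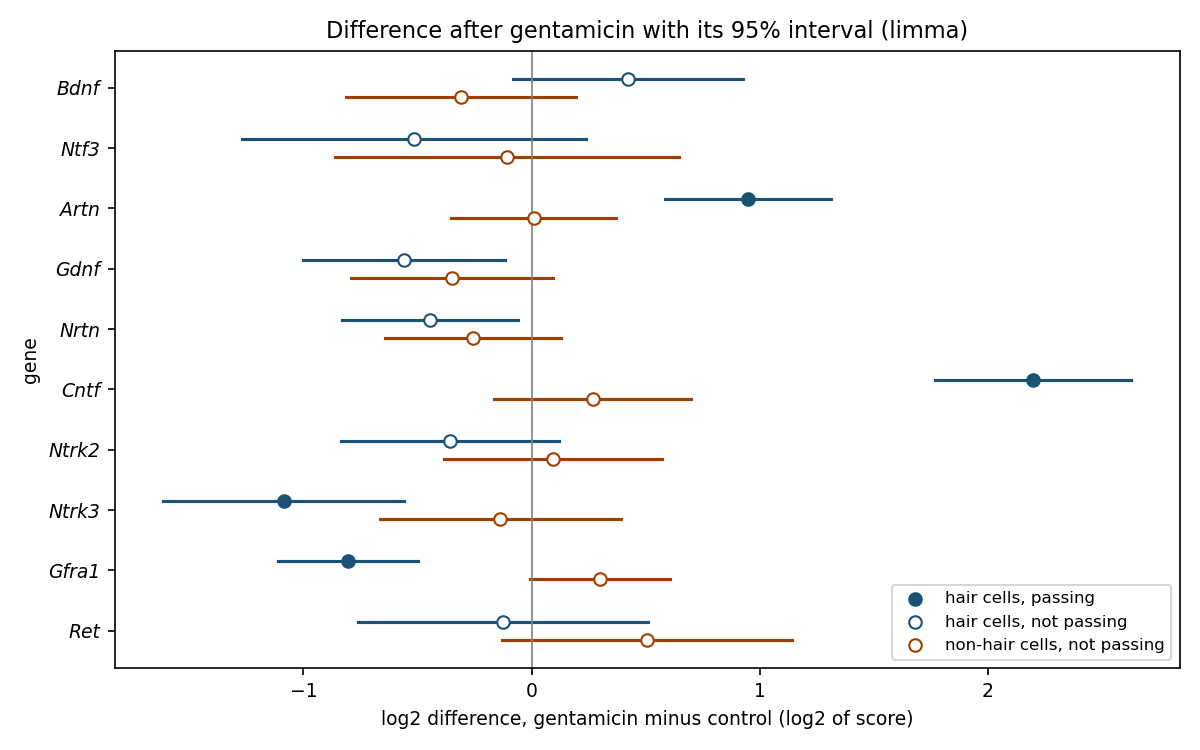
Log2 difference after gentamicin with its 95% interval for the 10 genes, in hair cells and in non-hair cells. Filled points passed at p below 0.01 with more than a 1.2-fold change; only Artn, Cntf, Ntrk3 and Gfra1 are filled, all in hair cells.

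A list of 92 further genes of these pathways, of which 90 passed the read minimum, was read in the same fits. In hair cells 31 passed after gentamicin, or 34.4% against 27.5% of all genes tested. Of these 6 were higher and 25 lower, where 12.7% of all genes were higher and 14.8% lower, with a median log2 difference of -0.32 against -0.09 over all genes tested. Without HC control replicate 2, or without HC gentamicin replicate 2, 18 of the 90 passed, where 3288 and 3392 of the 16078 genes tested did. The share of the list was then no higher than that of all genes. With scaling by total reads 6 rose and 20 fell, and that scaling moved the split over all genes from 2037 higher and 2381 lower to 2774 higher and 1591 lower. After the share of other-cell RNA was taken off, 6 rose and 18 fell, where 2301 of all genes tested rose and 1812 fell.

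Of the 15 related ligands tested, 1 fell in hair cells and 0 rose. This was Clcf1, a cytokine that signals through the Cntf receptor, with scores of 2.38 ± 0.45 and 1.62 ± 0.11 (SD, n = 3) and a log2 difference of -0.54. Of the 19 related receptors tested 8 fell and 0 rose. Islr2, a membrane protein that modulates Trk receptors, fell from 18.5 ± 9.07 (SD, n = 3) to 4.72 ± 0.81 (-1.84). In non-hair cells Islr2 averaged 86.9 in control and 43.9 after gentamicin, with overlap (-0.99, limma adjusted p = 0.362). Its interaction was not called (limma adjusted p = 0.485). Ptprs, a receptor phosphatase, fell from 239.2 to 129.4 on average (-0.89). The co-receptors Gfra2 and Gfra4 fell from 5.84 to 3.20 (-0.88) and from 10.04 to 5.89 (-0.80). The interaction was called for Ptprs, Gfra2 and Gfra4 (limma adjusted p = 0.0173, 0.0258 and 0.0298). Gfra2 and Gfra4 are the partners of Nrtn and persephin.

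Of the 9 genes that process neurotrophins 2 rose and 2 fell in hair cells. The proprotein convertases Pcsk7 (0.37) and Pcsk5 (0.35) rose, and among those that fell was Furin (-0.33), another convertase. Of 34 adaptors and signalling genes 3 rose and 10 fell. The risers were Cblb (0.45), a ubiquitin ligase, Sos1 (0.38), an exchange factor for Ras, and Crkl (0.37), an adaptor. The steepest falls were in Socs3 (-1.36), an inhibitor of cytokine receptors, the adaptors Shc3 (-1.06) and Frs2 (-0.70), and Maged1 (-0.71), a partner of the neurotrophin receptor Ngfr. Socs3 averaged 14.8 in HC control and 217.9 in NHC control, and Maged1 186.3 and 890.0. Frs2 averaged 36.1 and 71.7, and Shc3 7.33 and 7.24. The part of other-cell RNA in each of these falls was not tested. Of 13 genes known to respond to Trk or Ret signalling, which respond to many other stimuli too, 1 rose and 4 fell. Etv5, a transcription factor, rose by 0.28, a call that was lost with the replicate block (adjusted p = 0.0451, unadjusted p over the limit). Fos (-1.15), Dusp6 (-1.05), Etv4 (-0.97) and Egr1 (-0.68), which encode transcription factors apart from the phosphatase Dusp6, fell.

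**Figure D5:**
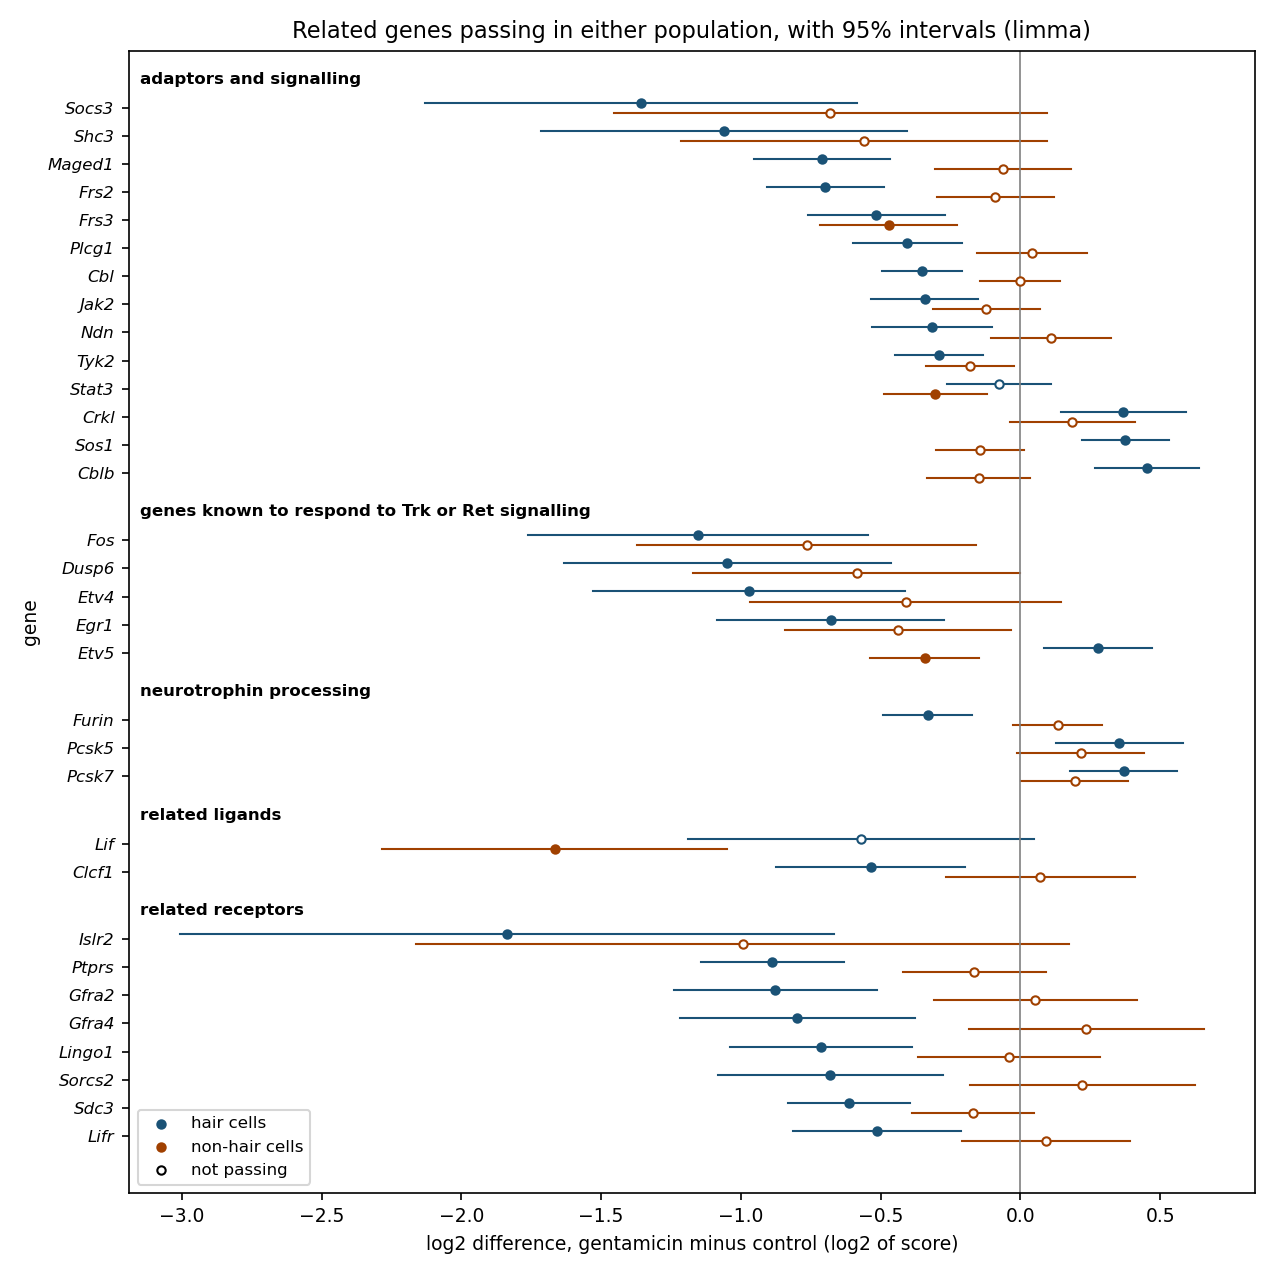
Log2 difference after gentamicin with 95% intervals for related genes that passed in either population, grouped by sublist, with 1 gene not drawn. Filled points passed the rule; in hair cells 24 of the 30 filled points lie below 0, and in non-hair cells all 4 do.

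In non-hair cells 5 of these 90 genes passed, all lower after gentamicin. This was 5.56% of the list, near the 5.44% of all genes. Among them were Lif, a cytokine of the Cntf family (-1.67), Frs3, an adaptor (-0.47), Etv5 (-0.34) and Stat3 (-0.30). The median was -0.13 against -0.01 over all genes tested. The count was 8 without NHC control replicate 1, 3 without NHC control replicate 2 and 14 without NHC gentamicin replicate 3. Over all genes tested these fits called 1366, 411 and 1570. The responses of 14 genes, or 15.6% against 13.4% of all genes, differed between the populations, 4 with a positive and 10 with a negative difference, and Etv5 was among them (0.62, limma adjusted p = 0.0101). With single replicates left out that count ran from 6 to 19, and that of all genes tested from 1163 to 2378. For the list it was 6 without HC control replicate 2 and 9 without HC control replicate 1 or HC gentamicin replicate 2. Without HC gentamicin replicate 1, NHC control replicate 2 or NHC gentamicin replicate 1 it was 8. Between the control populations 69 of the 90 genes differed, or 76.7% against 74.1% of all genes, 20 higher and 49 lower in hair cells.

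Bdnf overlaps an antisense gene, Gm45346, over 896 exon bases (14.4% of its own), and Gfra1 overlaps Gm16277 over 416 (7.6%). No use of strand in counting is stated, so reads of these pairs cannot be told apart.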

How the data were processed

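RNA was measured by sequencing of poly(A) mRNA from sorted cells, in 4 groups of 3 replicate columns. The authors aligned reads to mm10 with TopHat2 in PartekFlow and deposited a normalized score per gene and replicate, with 1 added. The study's methods describe the score as RPKM, from total reads and transcript length. The deposited values do not show this division: with 1 step per read in a replicate, 83.2 to 85.4% of low values were whole in each of 4 classes of genes by transcript length, so they were taken as scaled reads. The scaling factor behind them, the counter and the annotation are not given in the sources used here. Groups came from the sample labels and replicate numbers from the column names.

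The offset of 1 was taken off and each replicate's smallest step gave recovered reads, of which 82.8 to 83.8% of the low values (up to 20.5 reads) were whole within 0.1 read. The 22400679 to 28152271 recovered reads per replicate set the precision, and low genes are measured with counting error. Log2 scores were fitted with limma 3.58.1 (R 4.3.3; empirical Bayes with a trend) for the 16078 genes with at least 100 reads over the 12 replicates, with Benjamini-Hochberg adjustment over all of them. Gentamicin was read at p under 0.01 and fold above 1.2, after the study's thresholds, and the interaction and the populations at adjusted p under 0.05. The design assumed normalized scores, and no count model was run because reads were not whole for enough values. The fits were also run on simulated data in which each gene had the same mean level in both populations before changes were added. Measured levels differ between the populations, so that run is not used to judge the calls. Tables were handled with pandas 2.3.3 in Python 3.11.15 and plots drawn with matplotlib 3.10.9.

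Same-numbered replicates of the control populations deviated together (correlations across genes of 0.216, 0.316 and 0.2), so the number was taken to pair HC control and NHC control, from the data and not from the labels. The main fits, also of the control populations, held no replicate block. The block was run as an alternative and spanned all 4 groups. Positions and exon lengths came from GENCODE M21 and promoter sequences from RefSeq on GRCm38.p6.

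The members, lists and tests were chosen with earlier results of these data known. Text names the 10 members, and of the related genes that passed in either population at most the 4 with the largest log2 difference per list. A gene of that list is counted but not reported here by name. Frs3, Stat3, Etv5, Cblb, Sos1, Crkl and Zfp91 were named after their values were seen, as was the choice to subtract other-cell RNA and the 4 motifs. Alternatives were an offset of 0.1, scaling by total reads or a trimmed mean of M values, minimums of 0 and 1000 reads, the replicate block, the 2 compared groups alone, no variance trend, other thresholds, another gene length and each replicate left out.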

Additional observations from a re-analysis of the deposited data

Results flagged for a closer look

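The response to gentamicin differed between hair cells and non-hair cells for 3 members, by the interaction term of limma at an adjusted p under 0.05. The difference was 0.94 on the log2 scale for Artn, where 3 of 3 treated hair cell replicates lay above all controls and the non-hair cell groups overlapped. For Cntf it was 1.93, with treated replicates above all controls in both populations, and the reads of Cntf are not separable from those of Zfp91 over their shared exons. For Gfra1 it was -1.11, with 3 of 3 treated hair cell replicates below all controls and overlapping non-hair cell groups.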

How the results depend on the processing

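Direction and call were the same in most of the values recomputed for the 10 members. No direction turned under another scaling, offset, minimum or model. Leaving out 1 replicate turned 9 differences that had not passed. In non-hair cells Ntf3 ranged from -0.32 to 0.29, Artn from -0.096 to 0.18, Ntrk2 from -0.029 to 0.23 and Ntrk3 from -0.33 to 0.0766; between control populations Cntf ranged from -0.25 to 0.13. The count of members that passed in non-hair cells ranged from 0 to 2 with a replicate left out. For the related genes the lowest and highest counts with a replicate left out were 18 and 29 in hair cells (31 with all replicates), 3 and 14 in non-hair cells (5), 6 and 19 for the difference between responses (14), and 64 and 69 between control populations (69). Over all 16078 genes the same fits called 3288 to 4133 in hair cells (4418) and 411 to 1570 in non-hair cells (875). For the difference between responses they called 1163 to 2378 (2158), and between control populations 11132 to 11514 (11906). In non-hair cells the count of 5 related genes was 8 with the replicate block, 2 with the 2 groups alone and 1 at an adjusted p under 0.05. Over all genes tested the block called 878 and the 2 groups alone 383.

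Same-numbered replicates correlated by 0.037, 0.0523 and 0.0369 between the hair cell groups and by 0.208, -0.232 and 0.683 between the non-hair cell groups. Between HC gentamicin and NHC gentamicin they correlated by 0.377, -0.0386 and -0.018. Non-hair cell replicates of different numbers correlated by -0.749 to 0.572 between control and gentamicin. No pairing was taken from the numbers in these comparisons, and the correlations cannot settle whether there was one. The replicate block changed the call of 1 member, Ntf3 between control populations. Among the related genes it lost 1 call and gained 5 in hair cells (Etv5 was lost), gained 3 in non-hair cells (Fos and Dusp6 among them), lost 2 of the differences between responses and gained 2 between control populations. Scaling by a trimmed mean moved the median over all genes between control populations from -0.12 to -0.01. With the longest transcript as length, the level per kilobase in control cells was 31.9 for Bdnf in hair cells and 22.1 for Ntrk2 in non-hair cells. The cause of these changes was not tested. Depth limits Ret in hair cells and Bdnf and Cntf where their scores are near 1.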

Other observations

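Over the 12 replicates, the genes outside the lists whose log2 scores followed Bdnf most closely were Usp20 (Pearson r 0.9993), Dusp14 (0.9987) and Cdkl4 (0.9986), and 3027 genes had an r over 0.9. Those points share 4 groups and the large step between populations: Usp20 averaged 443.5 in the 3 replicates of control hair cells (SD 12.4) and 52.8 in control non-hair cells (SD 4.48). For Ntf3 they were Plch1 (0.9682), Slitrk6 (0.9641) and Stox1 (0.956), and 22 genes had an r over 0.9. Slitrk6 averaged 289.9 in control hair cells (SD 61.2) and 120.1 in control non-hair cells (SD 39.9).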
